A study of Mus musculus with 10 samples.

Results

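A set of 9 epithelial genes was followed in RNA of mouse lower incisors, prepared from their dental mesenchyme: the cell adhesion genes Cdh1, Dsp, Perp, Cldn1, Cldn10 and Epcam, and the epithelial identity genes Trp63, Esrp1 and Sfn. They were taken as the probe sets whose annotated symbol was exactly 1 of these names, which gave 18 probe sets for 9 of the 18193 genes on the array. For each gene the brightest probe set, by its mean over the 10 arrays, is reported, and the other 9 probe sets serve as a check. The denervated group holds 5 arrays of incisors from the side where the inferior alveolar nerve was resected, taken 2 weeks later, from wild-type C57BL/6J mice at postnatal day 60. The contralateral group holds 5 arrays of the opposite incisors of mice of the same strain, genotype and age, so that these mice had been operated on as well. There were no sham-operated or unoperated mice among the samples, which leaves the loss of the nerve and the operation inseparable, and the labels state that sex was not determined. Arrays of equal number were treated as the 2 incisors of 1 mouse, numbered 1 to 5, and all differences are denervated minus contralateral.

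Epithelial cells are held together by 3 kinds of junction. Adherens junctions join the actin skeletons of neighbouring cells through E-cadherin, desmosomes join their keratin filaments, and tight junctions, built of claudins, seal the space between them or let chosen ions through. In the incisor the genes followed here were read as markers of the dental epithelium, and whether each of them marks it was not tested. In mouse 3, 8 of them were lower on the denervated side, with Cdh1 at -1.91 and Epcam at -0.35. Cldn10 was higher there, by 0.23. The dental epithelium lies against the pulp, renews itself from stem cells at the base of the tooth and makes the enamel. The pulp itself is mesenchyme and holds odontoblasts, vessels and nerve endings. The sample labels name the mesenchyme and not the epithelium.

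The values are log2 intensities, so that a difference of 1 is a doubling on the linear scale, and each probe set has its own brightness, so that levels are compared between arrays and never between genes. Over all genes the arrays correlated with each other between 0.982 and 0.997 in 45 pairs of arrays. The array medians lay between 1.48 and 1.54, while 56.5% of genes averaged under 4, a range in which signal and background are hard to separate without detection calls. Of the 9 epithelial genes 8 had a mean of at least 4, and Sfn had a mean of 3.67. Markers of the labelled tissue were high on every array: the odontoblast list (Dspp, Dmp1, Phex, Nes, Col1a1, Col1a2) averaged between 10.64 and 11.54 on the denervated and between 11.43 and 11.55 on the contralateral arrays. Enamel genes were bright too, although the labels do not name the epithelium. Their list of 8 averaged between 5.86 and 9.71 on the denervated and between 8.71 and 9.71 on the contralateral arrays. On the contralateral arrays Ambn lay between 12.96 and 13.07 and Amelx between 12.80 and 12.94.

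Of the 9 genes 8 had a lower mean in the denervated incisors and 1, Cldn10, a higher one, with a median difference of -0.33, against 0.02 over all genes. None of the 9 passed limma's test at an adjusted p of 0.05 over all 18193 genes, where 0.0% of the genes passed, without or with the mouse as a block. At an unadjusted p under 0.05 limma called 0 of the 9 genes without the block, against 6.21% of all genes. The 2 groups overlapped in all 9 genes, and 0.951% of all genes had groups that did not overlap. The size of the differences came largely from 1 array: denervated array 3 was the lowest of the 10 arrays in 7 of the 9 genes, which was so in 10.2% of all genes, and without it the median difference was -0.04. In a bulk sample, fewer epithelial cells and less RNA per epithelial cell cannot be told apart.

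**Figure D1:**
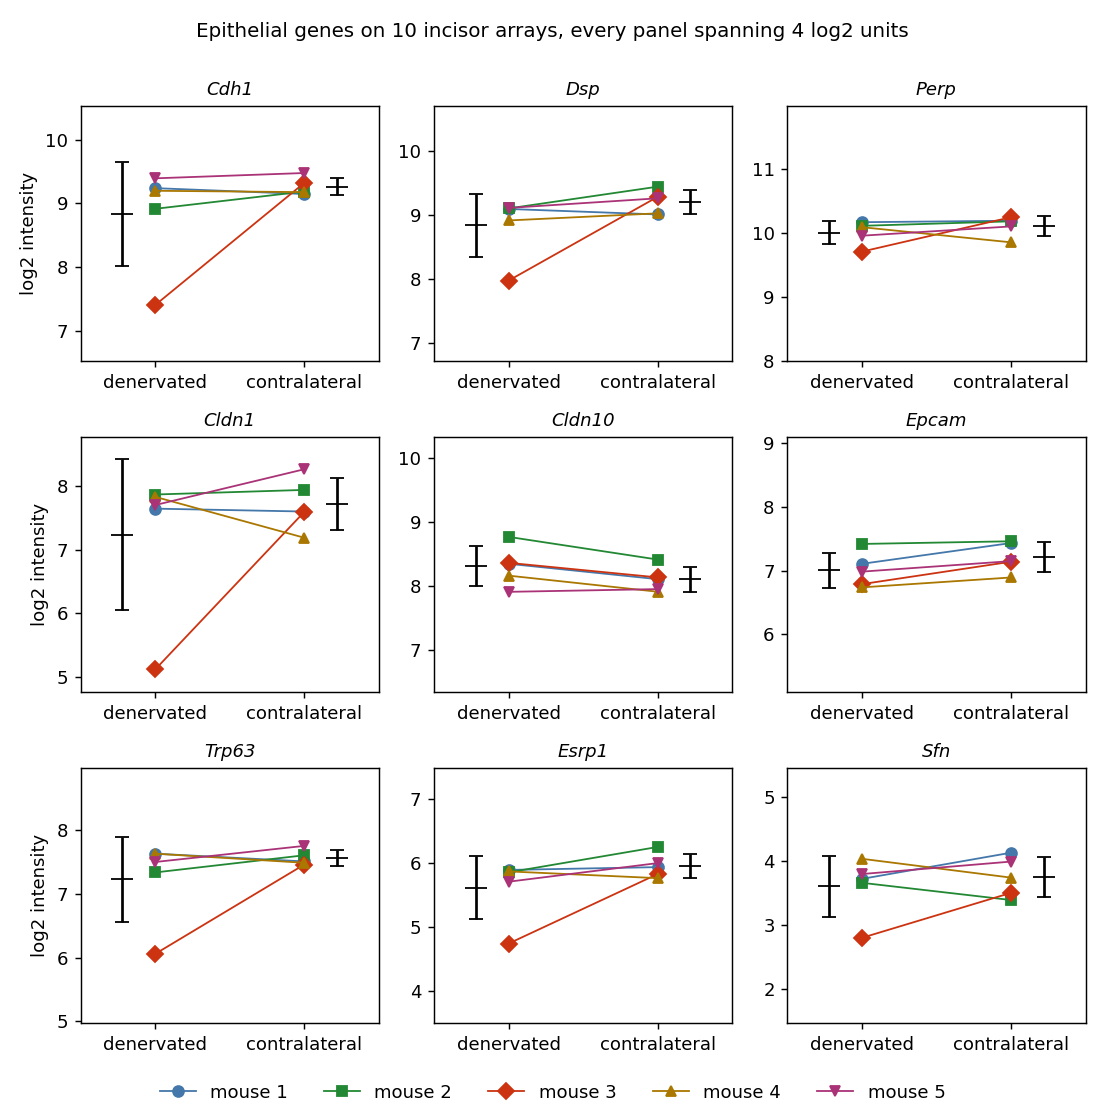
Log2 intensity of the 9 epithelial genes on each array (vertical axis, 4 log2 units in every panel), denervated on the left and contralateral on the right, with a line joining the 2 incisors of each mouse and black bars for mean and SD (n = 5). The denervated incisor of mouse 3 (red diamond) stands below all other arrays for Cdh1, Dsp, Perp, Cldn1, Trp63, Esrp1 and Sfn, but not for Cldn10 or Epcam.

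Cdh1 encodes E-cadherin, the calcium-dependent adhesion molecule of epithelial adherens junctions. It had log2 values of 9.24, 8.92, 7.41, 9.20 and 9.39 in the denervated incisors of mice 1 to 5, against 9.15, 9.19, 9.32, 9.18 and 9.48 in their contralateral incisors. Denervated array 3 lay 1.51 below the lowest of the other arrays, and the remaining values of the groups overlapped. Cdh1 averaged 8.83 ± 0.81 on the denervated and 9.26 ± 0.14 on the contralateral arrays (SD, n = 5 each). The difference of -0.43 had a 95% confidence interval from -1.13 to 0.27 and an adjusted p of 0.818 in limma. In mouse 3 the denervated incisor held 26.6% of the Cdh1 intensity of its partner, and in the other mice between 82.9% and 107%.

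Dsp and Perp belong to the desmosome. Desmoplakin, the product of Dsp, ties the desmosome to keratin filaments. Dsp averaged 8.84 ± 0.49 on the denervated and 9.20 ± 0.19 on the contralateral arrays (SD, n = 5 each). Its values were 9.09, 9.10, 7.97, 8.91 and 9.11 in the denervated incisors of mice 1 to 5, against 9.01, 9.44, 9.28, 9.02 and 9.26 in the contralateral ones. Denervated array 3 was again the lowest, by 0.94, and the denervated value was below its partner in 4 of 5 mice. The difference of -0.37 (95% confidence interval -0.82 to 0.09) had an adjusted p of 0.796 in limma, the smallest of the 9 genes, and was -0.15 without denervated array 3. A further Dsp probe set with a mean of 8.23 gave a difference of -0.30 and -1.28 in mouse 3, but 0.17 in mouse 1 and 0.28 in mouse 5. The last one, near background with a mean of 0.85, gave -0.15 and -0.45 in mouse 3.

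Perp encodes a tetraspan membrane protein of desmosomes that p53 and p63 induce. It stayed within 0.54 log2 units over all 10 arrays: 10.17, 10.11, 9.71, 10.09 and 9.96 denervated, against 10.19, 10.18, 10.24, 9.85 and 10.10 contralateral. Denervated array 3 was the lowest by only 0.15, and the other denervated arrays lay among the contralateral ones. The difference was -0.11 (95% confidence interval -0.34 to 0.12, adjusted p = 0.845 in limma). In mouse 3 the denervated incisor held 68.8% of the Perp intensity of its partner, against 40.3% for Dsp.

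The 2 claudin genes differed from each other in mouse 3. Claudin-1, encoded by Cldn1, is a barrier-forming claudin of stratified epithelia. It had 7.64, 7.86, 5.12, 7.83 and 7.70 in the denervated incisors of mice 1 to 5, against 7.60, 7.94, 7.59, 7.19 and 8.26 in the contralateral ones. Denervated array 3 lay 2.06 below the lowest other array, and the remaining denervated values lay inside the contralateral range. The difference of -0.48 had a 95% confidence interval from -1.53 to 0.57 (adjusted p = 0.849 in limma) and turned to 0.04 without denervated array 3. Apart from that array Cldn1 had differences of 0.64 in mouse 4 and -0.56 in mouse 5, which were the only 2 of the 36 differences in mice 1, 2, 4 and 5 larger than 0.5 in size. Its contralateral values spanned 1.07. Its 3 other probe sets all had means below 2, where signal and background are hard to separate. They gave differences of 0.12, -0.07 and 0.07, and of -0.32, 0.04 and -0.02 in mouse 3.

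Cldn10 encodes claudin-10, which forms ion channels between cells and exists in isoforms that start from different first exons. Its only probe set had 8.35, 8.77, 8.37, 8.17 and 7.91 in the denervated incisors of mice 1 to 5, against 8.11, 8.42, 8.14, 7.91 and 7.95 in the contralateral ones. Here denervated array 3 was above its partner, by 0.23, and the denervated value was the higher one in 4 of 5 mice, by 0.23 to 0.36, with -0.04 in mouse 5. The difference was 0.21 (95% confidence interval -0.12 to 0.54, adjusted p = 0.818 in limma). With the mouse as a block the interval was 0.03 to 0.39, with an unadjusted p of 0.0294 and an adjusted p of 0.459. Without both arrays of mouse 3 the difference was 0.20 in that fit, with an interval from -0.01 to 0.42. Limma's unadjusted p was then 0.0620 and the adjusted p 0.697. The probe set name carries the suffix that the array maker gives to probe sets matching several transcripts, which need not be of 1 gene. The values do not say which transcript or start site was read. The name of the brightest Dsp probe set carries the same suffix.

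To show the start regions behind these 2 claudins, the promoter windows of RefSeq (build GRCm38.p6, 250 bases before to 50 after the start site) are printed for Cldn1 at chr16:26371790-26372089 on the minus strand, and for the upstream and downstream start of Cldn10 at chr14:118787621-118787920 and chr14:118854700-118854999, both on the plus strand. Capitals mark the GC box GGGCGG, which Sp1-type factors bind, and the E-box CACCTG, which Snail and Zeb repressors bind, each searched on both strands.
Cldn1: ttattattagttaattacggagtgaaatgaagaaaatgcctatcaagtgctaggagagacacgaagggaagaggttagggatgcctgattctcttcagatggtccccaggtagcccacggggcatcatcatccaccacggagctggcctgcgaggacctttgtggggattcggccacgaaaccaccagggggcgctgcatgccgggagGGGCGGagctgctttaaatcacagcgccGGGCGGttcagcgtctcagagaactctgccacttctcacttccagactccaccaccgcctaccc
Cldn10 upstream start: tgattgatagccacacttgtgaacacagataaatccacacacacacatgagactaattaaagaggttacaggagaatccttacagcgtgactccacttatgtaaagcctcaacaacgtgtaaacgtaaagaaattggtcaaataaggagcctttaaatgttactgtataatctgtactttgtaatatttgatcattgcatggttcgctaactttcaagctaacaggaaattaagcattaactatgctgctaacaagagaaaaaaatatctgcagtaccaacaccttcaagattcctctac
Cldn10 downstream start: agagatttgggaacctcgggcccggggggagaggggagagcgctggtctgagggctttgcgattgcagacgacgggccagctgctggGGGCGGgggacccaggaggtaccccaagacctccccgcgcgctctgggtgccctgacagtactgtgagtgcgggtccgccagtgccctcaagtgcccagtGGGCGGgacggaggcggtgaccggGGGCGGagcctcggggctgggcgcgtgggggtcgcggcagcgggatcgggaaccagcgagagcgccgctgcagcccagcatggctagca
The Cldn1 window holds 2 GC boxes, the upstream Cldn10 window none and the downstream Cldn10 window 3, while 35.7% of all 32851 promoter windows hold at least 1. No E-box stands in any of the 3 windows; 20.2% of all windows hold one. The upstream Cldn10 window has 36.0% G and C bases and the downstream one 72.0%, against 56.0% for Cldn1 and a median of 52.7% over all windows. Neither the AP-1 site TGANTCA, found in 7.81% of all windows, nor the TATA box TATAAA, found in 13.6%, occurs in them. A match is only a run of letters, and binding was not measured.

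Epcam encodes the epithelial cell adhesion molecule, a surface glycoprotein of most simple and many developing epithelia. Its values were 7.11, 7.42, 6.79, 6.74 and 6.98 in the denervated incisors of mice 1 to 5, against 7.43, 7.46, 7.14, 6.89 and 7.15 in the contralateral ones. The denervated value was the lower one in all 5 mice, by 0.04 to 0.35, although the ranges of the groups overlapped. The mice stood in the same order in both groups, which was so for 1 of the 9 genes and for 2.07% of all genes, and a lower value in 5 of 5 mice was seen in 3.8% of all genes. The difference of -0.21 had a 95% confidence interval from -0.53 to 0.11 (adjusted p = 0.818 in limma). With the mouse as a block the interval was -0.38 to -0.04, with an unadjusted p of 0.0237 and an adjusted p of 0.447. Without both arrays of mouse 3 the Epcam difference was -0.17 in that fit, with an interval from -0.36 to 0.02. Limma's unadjusted p was then 0.0732 and the adjusted p 0.713. The second Epcam probe set, with a mean of 5.02, gave -0.20 but was lower in only 3 of 5 mice.

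Epcam and Cldn10 were thus the 2 genes of the 9 with an unadjusted p under 0.05 once the mouse was a block, in opposite directions, where 9.92% of all genes had such a p, 2.93% lower and 6.99% higher in the denervated incisors. Neither passed over all genes. The Epcam window, at chr17:87635729-87636028 on the plus strand of GRCm38.p6, is shown because it holds 2 E-boxes, in capitals with 1 GC box on the reverse strand.
Epcam: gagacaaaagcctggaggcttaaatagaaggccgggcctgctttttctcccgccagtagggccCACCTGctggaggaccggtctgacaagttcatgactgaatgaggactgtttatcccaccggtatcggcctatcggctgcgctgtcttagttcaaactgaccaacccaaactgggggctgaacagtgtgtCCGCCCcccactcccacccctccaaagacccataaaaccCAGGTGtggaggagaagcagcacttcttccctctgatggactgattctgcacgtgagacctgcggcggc
Counted in bases from the start site, the E-boxes begin at -187 and -19. Of the other 2 epithelial genes with a RefSeq window here, Dsp and Sfn, each holds 1 E-box. Windows were matched for 5 of the 9 genes.

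Trp63 and Esrp1 are regulators of epithelial identity. Trp63 encodes p63, a transcription factor of the p53 family that stratified epithelia need to form and to keep their stem cells. It had 7.63, 7.33, 6.06, 7.63 and 7.50 in the denervated incisors of mice 1 to 5, against 7.51, 7.60, 7.46, 7.48 and 7.75 in the contralateral ones. Denervated array 3 lay 1.28 below the next array, at 37.9% of its partner's intensity, while the other denervated arrays held between 83.0% and 110.4% of theirs. The difference was -0.33 (95% confidence interval -0.91 to 0.24, adjusted p = 0.826 in limma), and -0.04 without denervated array 3. The 3 other Trp63 probe sets had means below 2, where signal and background are hard to separate. All 3 were lower in the denervated incisor of mouse 3, by 0.35 to 0.50.

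Esrp1 encodes an RNA-binding protein that sets the epithelial splice forms of many transcripts, that of Fgfr2 among them. Its values were 5.89, 5.85, 4.74, 5.87 and 5.71 in the denervated incisors, against 5.94, 6.25, 5.83, 5.76 and 6.00 in the contralateral ones, mice 1 to 5 in order. The denervated value was lower in 4 of 5 mice, and denervated array 3 lay 0.97 below the lowest other array. Limma gave a difference of -0.34 (95% confidence interval -0.80 to 0.11, adjusted p = 0.804), which was -0.12 without denervated array 3.

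Sfn encodes 14-3-3 sigma, a binding protein that keratinocytes induce as they leave the cell cycle and differentiate. It lay near the low end of the scale, with 3.72, 3.66, 2.79, 4.03 and 3.79 in the denervated incisors of mice 1 to 5, against 4.13, 3.39, 3.50, 3.74 and 3.99 in the contralateral ones. Apart from denervated array 3, the values of the groups were intermixed. The difference of -0.15 (95% confidence interval -0.64 to 0.34, adjusted p = 0.901 in limma) turned to 0.05 without that array.

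**Figure D2:**
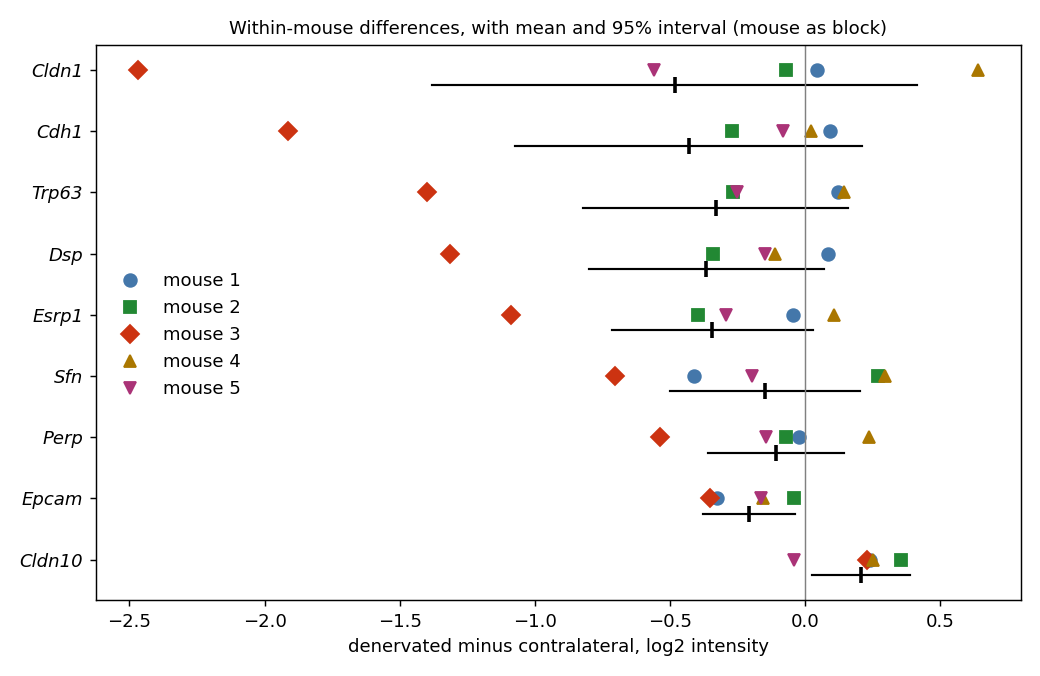
Denervated minus contralateral log2 intensity (horizontal axis) in each of the 5 mice for the 9 genes, ordered by the value in mouse 3, with the mean (tick) and the 95% confidence interval of limma's fit with the mouse as a block (line) below the symbols. Mouse 3 runs from -2.47 for Cldn1 to 0.23 for Cldn10, while the other mice stay between -0.56 and 0.64; in the Cldn10 line the symbols of mice 1, 3 and 4 overlap.

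The size of the differences depended on the mouse. The median of the 9 differences was 0.05 in mouse 1, -0.07 in mouse 2, -1.09 in mouse 3, 0.14 in mouse 4 and -0.16 in mouse 5. Of the 9 genes 4 were lower on the denervated side in mouse 1, 7 in mouse 2, 8 in mouse 3, 2 in mouse 4 and 9 in mouse 5. Of all 18193 genes 9795, 7706, 7274, 8668 and 9447 were lower in mice 1 to 5, in that order. In mouse 3, Cldn1, Cdh1, Trp63, Dsp and Esrp1, 5 of the 9 genes, were lower by more than 1, as were 1.13% of all genes. In the other mice 0 of the 9 genes were lower by more than 1, and of all genes 0.066% in mouse 1, 0.874% in mouse 2, 0.033% in mouse 4 and 0.137% in mouse 5. With both arrays of mouse 3 left out and the mouse as a block, the 95% confidence intervals of the 9 genes ran from -0.40 (Esrp1) at the lowest end to 0.43 (Cldn1) at the highest. In that fit Cdh1 differed by -0.06 (-0.27 to 0.15) and Trp63 by -0.06 (-0.31 to 0.18).

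Among themselves the genes kept together mainly through the same array. Over the 10 arrays Pearson's correlation was 0.98 between Cdh1 and Trp63, 0.96 between Cldn1 and Trp63 and 0.95 between Dsp and Esrp1. Over the 9 arrays without denervated array 3 these were 0.66, 0.50 and 0.65. Other pairs, picked with their values known, fell further. Cdh1 and Esrp1 went from 0.89 to -0.05, Cdh1 and Dsp from 0.92 to 0.29, and Dsp and Sfn from 0.58 to -0.70. Epcam and Esrp1 stayed near their value, at 0.60 and 0.59. Cldn10 and Cdh1 correlated at -0.39 over 10 arrays and -0.77 over 9. Arrays of 1 mouse share an animal, so these values describe 10 arrays of 5 mice and carry no test.

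The genes whose pattern was most like the mean of the 9 were looked for among the 7911 other genes with a mean of at least 4. Over 10 arrays the closest were Evpl at 0.991, D630045J12Rik at 0.991, Ern1 at 0.989, Slc38a3 at 0.988 and Fetub at 0.987. Over the 9 arrays without denervated array 3 they were Vipas39 at 0.944, Slc12a4 at 0.936, Traf3ip2 at 0.929, Adipor1 at 0.923 and Gucd1 at 0.921. Vipas39 and Adipor1 correlated at 0.363 and 0.0786 once that array was included. For single genes the closest over 10 arrays were Clu for Cdh1 (0.993), Kcnk1 for Trp63 (0.993), Ern1 for Cldn1 (0.990), Mapkbp1 for Esrp1 (0.988), Mfge8 for Dsp (0.975), Arhgap29 for Perp (0.951) and Vapa for Sfn (0.909). Pus10 was closest to Epcam and Man2c1 to Cldn10, at 0.972 and 0.969 over 10 arrays and at 0.969 in both cases over 9, so that these 2 likenesses did not rest on denervated array 3.

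Other genes of the same structures were read from lists of related genes, and 0 genes passed in any of the 6 lists, again against 0.0% of all genes. All 12 measured genes of the other desmosome components had a lower mean in the denervated incisors, where 44.2% of all genes had a lower mean. Their median was -0.28, or -0.06 without denervated array 3, and 8 of the 12 had a mean level of at least 4. The plakin genes Ppl, dim with a mean of 3.17, and Evpl, whose products join desmosomes and the cornified envelope to keratins, differed by -0.53 ± 0.23 and -0.59 ± 0.38 (SE, adjusted p = 0.790 and 0.804 in limma). In mouse 3, 9 of the 12 were lower by more than 1. Chosen after their values were seen, the plakophilin gene Pkp1 differed there by -2.72 and the desmoglein gene Dsg1a, which has near-identical copies, by -2.85, while the plakoglobin gene Jup, shared by desmosomes and adherens junctions, differed by -0.18.

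Among 17 measured tight junction genes 16 had a lower mean and 1 a higher one, but only 4 had a mean of at least 4 and the median was -0.05. Lsr, whose product angulin-1 sits where 3 epithelial cells meet, had 4.43, 4.28, 4.09, 4.21 and 4.37 in the denervated incisors of mice 1 to 5, against 4.82, 4.69, 4.50, 4.40 and 4.86 in the contralateral ones. Only mouse 4's contralateral value reached into the denervated range, and the denervated value was lower in 5 of 5 mice, by 0.19 to 0.49. The difference was -0.38 ± 0.10 (SE), and -0.33 without denervated array 3. It did not pass over all genes, with an adjusted p of 0.790 in limma and 0.318 with the mouse as a block. The scaffold gene Tjp1, encoding ZO-1, which endothelium and other cells also express, differed by -0.17 ± 0.09 (SE, adjusted p = 0.790 in limma).

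The hemidesmosome and basement membrane anchor list had 8 of 8 measured genes lower on average, with a median of -0.30, or -0.05 without denervated array 3. Dst and Plec, which encode linkers between integrins and keratin filaments, differed by -0.21 ± 0.13 and -0.13 ± 0.10 (SE, adjusted p = 0.804 and 0.822 in limma) and were lower in 5 of 5 mice. Lama3, which encodes a chain of laminin-332 and was chosen after its values were seen, stood at 2.37 on denervated array 3 and between 8.74 and 9.42 on the other denervated arrays, against 8.68 to 9.37 on the contralateral arrays. The value of 2.37 lies in the range where signal and background are hard to separate, which leaves the size of that difference undetermined.

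Of 15 measured genes of adherens junctions and the epithelial surface 12 were lower and 3 higher on average, and 8 had a mean of at least 4. The median difference was -0.19, or -0.06 without denervated array 3. Prss8, a membrane-anchored protease gene near background, differed by -0.18 ± 0.08 and Nectin2, a dim adhesion gene of many cell types, by 0.29 ± 0.14 (SE, adjusted p = 0.790 for both in limma). Ctnna1, Ctnnb1 and Ctnnd1, genes of the catenins that serve many cadherins, were also picked with their values known: they differed by 0.06, -0.05 and 0.04, and in mouse 3 by 0.16, -0.09 and 0.14. Of 13 measured epithelial regulators 10 were lower and 3 higher, with a median of -0.04, but only 4 had a mean of at least 4. Grhl2, a factor that activates Cdh1 and claudin genes in other epithelia, differed by -0.32 ± 0.13 and Elf3, near background, by -0.18 ± 0.09 (SE, adjusted p = 0.790 for both in limma). The list of repressors of epithelial genes and mesenchymal cadherins went the other way, with 8 of 9 genes higher and a median of 0.18. Of all 18193 genes 10158 had a higher mean, and the median was 0.02. Cdh11, the cadherin of mesenchyme, differed by 0.18 ± 0.07 and Twist2 by 0.49 ± 0.22 (SE, adjusted p = 0.790 for both in limma), each higher in 5 of 5 mice, as were 6.58% of all genes. For Twist2 the differences in mice 1 to 5 were 0.09, 1.02, 0.81, 0.001 and 0.52, so that mouse 4 was almost unchanged. Zeb1 and Zeb2, which repress Cdh1 in other tissues, differed by 0.16 ± 0.18 and 0.34 ± 0.19, and Vim, the mesenchymal intermediate filament gene, by 0.02 ± 0.08 (SE, adjusted p = 0.869, 0.796 and 0.972 in limma).

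**Figure D3:**
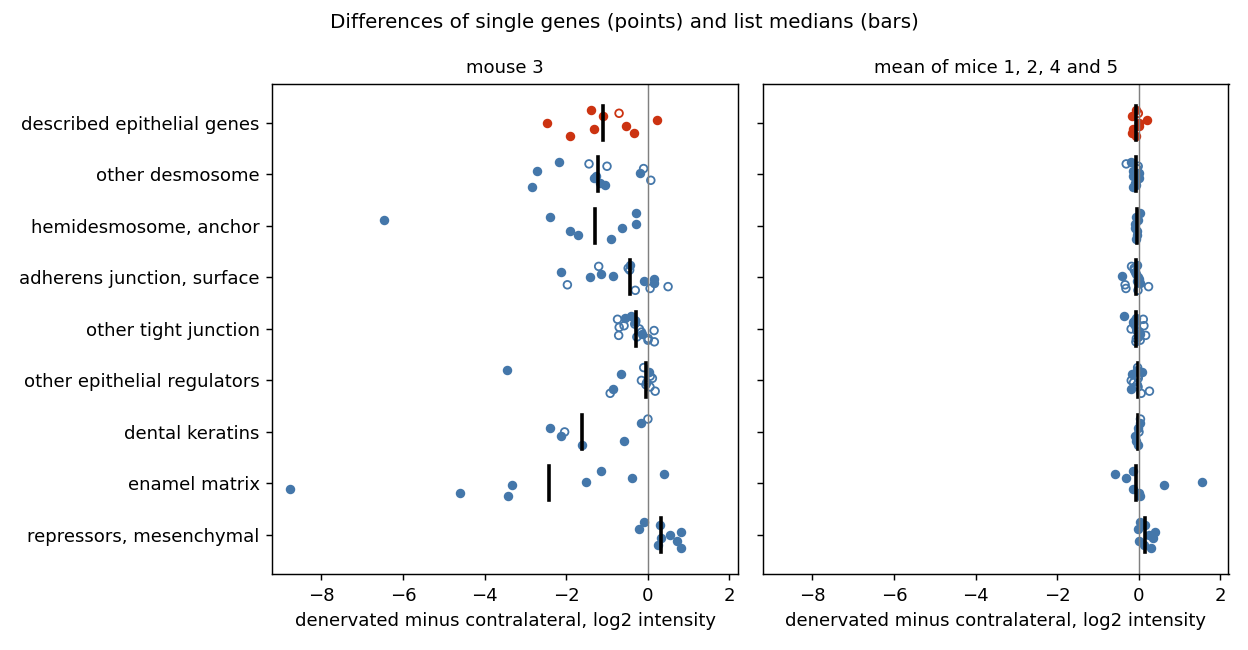
Denervated minus contralateral log2 intensity (horizontal axis) of single genes in mouse 3 (left) and averaged over mice 1, 2, 4 and 5 (right) for the 9 described genes (red) and 8 related lists (blue), filled where the gene's mean was at least 4 and open below; black bars are medians. In mouse 3 the median is -1.09 for the 9 genes, -1.22 for the other desmosome genes and -2.43 for the enamel matrix list, and 0.31 for the repressors and mesenchymal cadherins.

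Markers of other cells moved on the same array, and their part in the results above was not tested. In mouse 3 the median difference was -1.61 for 7 dental epithelium keratins and -2.43 for 8 ameloblast and enamel matrix genes, with Krt14 at -2.12, Krt5 at -1.61, Shh at -1.15, Ambn at -3.43 and Amelx at -4.60. Enam stood at 0.82 on denervated array 3, where signal and background are hard to separate, against 9.59 on its partner, so the size of that difference is not determined. Not all genes of these lists were lower by as much: the enamel protease genes Klk4 and Mmp20 and the keratin gene Krt18, picked with their values known, had differences of 0.39, -0.39 and -0.17 in that mouse. The mean level of the keratin list was 4.48 on denervated array 3, and lay between 5.76 and 6.08 on the contralateral arrays. In the same mouse all 7 macrophage genes, all 7 endothelial genes and all 6 pericyte and smooth muscle genes were higher on the denervated side, with medians of 1.08, 0.50 and 0.53. Of all 18193 genes 7274 were lower in that mouse, and the median was 0.07. The macrophage list averaged between 6.17 and 6.96 on the denervated and between 5.83 and 6.15 on the contralateral arrays, the endothelial list between 4.29 and 5.15 and between 4.39 and 4.79, and the pericyte and smooth muscle list between 6.22 and 7.44 and between 5.81 and 6.39. In mice 1, 4 and 5 the macrophage medians were 0.22, 0.19 and 0.40, and no macrophage gene was lower in any mouse. The pericyte and smooth muscle medians were 0.22, 0.19 and -0.09 there, and the endothelial ones -0.12, -0.05 and -0.26. Mouse 2 also had higher vascular and macrophage values, with medians of 0.50 (endothelial), 1.27 (pericyte and smooth muscle) and 0.85 (macrophage). Its median was -0.07 for the 9 epithelial genes. The related lists had medians of -0.24 (desmosome), -0.26 (hemidesmosome), -0.17 (adherens junction), -0.07 (tight junction) and -0.08 (epithelial regulators) in that mouse. Its keratin and enamel matrix lists were both at -0.10. Odontoblast genes had a median of 0.09 in mouse 3 and -0.66 in mouse 2. Oral and skin epithelium genes averaged between 1.28 and 1.53 on the denervated and between 1.31 and 1.56 on the contralateral arrays, 1 of 11 with a mean of at least 4 (Krt10). Salivary and glandular markers averaged between 0.91 and 1.00 and between 0.85 and 1.02, and none of their 6 genes exceeded 1.55 on any array.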

How the data were processed

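Total RNA of 10 incisor samples, 5 per group, was hybridised to 1-colour oligonucleotide arrays. The table deposited by the authors holds 1 log2 intensity for each probe set and array. Per the submitters' processing notes it was made with RMA, which corrects background, normalizes and summarizes probes; no version is given, and the log2 scale was read from the values. Medians near 1.5 and values below 0 (lowest -0.16) are lower than RMA usually gives, and the variant used is not given in the sources used here. The values were used as deposited.

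Of 45101 probe sets 64 controls were left out; 34945 name 1 gene symbol in the platform annotation, 932 several and 9160 none. Groups were compared over 18193 genes with limma 3.58.1 in R 4.3.3 (lmFit, eBayes, Benjamini-Hochberg over all genes, threshold 0.05), without and with the mouse as a block, after a check on simulated data. The design text states that both incisors of 5 mice were used. The correlation of deviations from the group means was 0.18 to 0.57 for the 5 pairs of equal number, against -0.41 to 0.22 for the 20 others. Of the 5 denervated arrays 4 correlated best with the contralateral array of their own number. The exception was denervated array 3, at 0.18 with contralateral array 3 and 0.22 with contralateral array 1. The numbers were taken to pair the arrays, which is least certain for mouse 3. The mouse is the replicate.

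The members, lists and named genes were chosen with earlier results of these data known. Named genes are the 9 members, the 2 genes of smallest unadjusted p per related list, Krt14, Krt5, Ambn, Amelx, Enam, Shh, Vim, Zeb1 and Zeb2, and those most like the members; others are marked. The Schwann cell list, with 1 of 5 measured genes at a mean of at least 4, had medians of 2.55 in mouse 2 and 1.69 in mouse 3; the skeletal muscle list, with 0 of 5, had 0.16 and -0.21. Alternatives were the block, each array or mice left out, other probe sets, normalizations, a filter on low means, array weights and a trended robust fit.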

Additional observations from a re-analysis of the deposited data

Results flagged for a closer look

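In each group of 5 arrays the highest and the lowest value were compared with the nearest other value, by the gap as a share of the whole range of the group (Dixon's ratio, critical value 0.710). Chance alone passes about 1 in 20 groups of genes chosen without regard to their values. The 47 genes tested here, in 94 groups, were not: many were picked for following the 9 epithelial genes or with earlier results known, so the 27 values that passed, 24 of them the low value of denervated array 3, are a description and are not read against that rate. Among the 9 epithelial genes this array was flagged for Cldn1 (0.919), Esrp1 (0.840), Dsp (0.828), Trp63 (0.813) and Cdh1 (0.759), and no contralateral array was flagged for any of them.

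The same array was low for the related genes Evpl (0.972), Grhl2 (0.899) and Ppl (0.730), for the keratin genes Krt5 (0.972) and Krt14 (0.887), and for Amelx (0.973), Ambn (0.948), Enam (0.873) and Shh (0.739). It was also low for the genes chosen by likeness: Ern1 (0.922), Fetub (0.898), Mapkbp1 (0.888), D630045J12Rik (0.877), Kcnk1 (0.870), Slc38a3 (0.831), Slc12a4 (0.817), Mfge8 (0.803), Clu (0.802) and Gucd1 (0.762). The 3 other flags were denervated array 2 high for Vipas39 (0.884), contralateral array 2 high for Plec (0.766) and contralateral array 4 low for Arhgap29 (0.720).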

How the results depend on the processing

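No gene of the 9, of the related lists or of the 18193 passed limma's adjusted threshold under any of 22 alternatives, the mouse block included; the number of genes with an unadjusted p under 0.05 ran from 535 to 1805. Of 197 values of the 9 genes under these alternatives 185 kept their direction and 12 turned. The mouse block, the filter on low means and the trended robust fit leave the difference of a gene unchanged, so directions under them were fixed in advance. Leaving out 1 array at a time gave a median of the 9 between -0.41 and -0.04, the value nearest 0 being that without denervated array 3, where 2 genes turned. The range was -0.641 (without denervated array 2) to 0.0440 for Cldn1 and -0.258 (without denervated array 4) to 0.0521 for Sfn. Without both arrays of mouse 3 Cldn1 was 0.0133. Without mice 2 and 3 Cldn1 was 0.0417, Perp 0.0229, Cdh1 0.0099 and Trp63 0.0039, and the median of the 9 was 0.0039. The mouse block cannot change any of these values. With all mice the block likewise cannot move the median of -0.33, and no gene was called. With the mean of all probe sets of a gene, near-background ones included, the median was -0.19, with Cldn1 at -0.09. Cldn10 stayed between 0.09 and 0.31 and Epcam between -0.31 and -0.14 under all alternatives run. The count of genes lower in 5 of 5 mice, 1 (Epcam), was 0 when every probe set of a gene had to agree. Leaving out genes with a mean under 4 took the median of the tight junction list to -0.17 and that of the epithelial regulators to -0.29. Without mice 2 and 3 the median of the hemidesmosome list turned to 0.0307 and that of the desmosome list was -0.0291, against -0.30 and -0.28 with all mice. The number of arrays limits the precision, and Sfn and 7 of the 9 check probe sets lie where signal and background are hard to separate. Of these 9 check probe sets 7 had the direction of the probe set used, and the others were of Cldn1.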
